A study of Mus musculus with 50 samples.

Results

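The fibroblast growth factor (FGF) ligands, their receptors and the inhibitors that feed back on the signal were described in mouse embryonic stem cells (ESCs) whose Polycomb Repressive Complex 2 (PRC2) was altered. Members were the rows of the expression table named *Fgf* with a number, *Fgfr1* to *Fgfr4*, *Fgfrl1*, *Spry*, *Spred*, *Dusp4* and *Dusp6*. The rule uses names alone and found 31 of the 18055 genes, with 18 *Fgf* genes grouped as ligands, 5 receptors and 8 feedback inhibitors. The ligand group includes *Fgf11*, *Fgf12*, *Fgf13* and *Fgf14*, which encode intracellular homologous factors rather than secreted ligands. FGF ligands bind receptor tyrosine kinases that start the RAS, RAF, MEK and ERK kinase cascade, and Sprouty (*Spry*), Spred (*Spred*) and the ERK phosphatases *Dusp4* and *Dusp6* act against that cascade and are often induced by it. In ESCs, *Fgf4* acting through ERK is known to move cells away from the naive state towards differentiation. PRC2 is the complex that methylates lysine 27 of histone H3 through EZH2 or EZH1, with SUZ12 as a core subunit, and it holds many developmental genes silent.

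The lines were the wild type E14TG2a ESC line (WT) and CRISPR/Cas9 clones of it. *Ezh2* KO lacked *Ezh2*, *Ezh1/2* dKO lacked *Ezh1* and *Ezh2*, and *Ezh2* Y726D and *Ezh2* R685C carried a point mutation of *Ezh2* in cells that also lacked *Ezh1*. All lines were kept with serum, LIF and inhibitors of GSK3β and MEK, so an inhibitor of the cascade below the FGF receptors was present for the control as well, and ERK activity was not measured here. A further *Ezh1/2* dKO sample was transfected with HA-tagged human EZH1 (+ HA-EZH1). RNA-seq covered the wild type, both knockout lines and *Ezh2* Y726D with 2 libraries each, and ChIP-seq peak lists came from 1 library for each line and target. How many clones stand behind a line is not given in the sources used here, so the effect of a clone and that of its genotype cannot be told apart.

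RNA libraries held 3604123 to 5181553 reads. *Ezh2* was at 0.824 to 1.78 normalized counts in the *Ezh2* KO and *Ezh1/2* dKO libraries, against 422 to 613 in WT and *Ezh2* Y726D, and *Ezh1* was at 14.01 to 24.1 in *Ezh1/2* dKO and *Ezh2* Y726D against 227 to 378 elsewhere. The summed level of 9 naive pluripotency genes was 13230 to 15770 in the 8 libraries. Of these 9, *Dppa3* was called: it was at 176 and 106 in WT, 170 and 114 in *Ezh2* KO, 283 and 414 in *Ezh1/2* dKO, and 21.4 and 20.1 in *Ezh2* Y726D, higher in *Ezh1/2* dKO (limma adjusted p = 0.0775) and lower in *Ezh2* Y726D (limma adjusted p = 0.0113) than in WT. A pair of libraries stood apart in the pathway. WT replicate 1 held *Egr1* at 2118 and *Fos* at 1876, both rapid ERK targets, against 9.63 and 13.5 in WT replicate 2. *Ezh2* Y726D replicate 2 held *Etv4*, an ETS factor induced by FGF, at 436 and the trophoblast and hindgut regulator *Cdx2* at 440, against 42.8 and 33.0 in its partner library. *Cdx2* also differed between the libraries of other lines, at 70.7 and 9.63 in WT, 1.05 and 25.2 in *Ezh2* KO, and 28.0 and 83.5 in *Ezh1/2* dKO.

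To show the promoters on which the results turn, the 250 bases upstream of the most 5′ transcription start (TSS) are given for 6 members, read from the mm9 genome in the direction of transcription, with CpG dinucleotides in capitals. *Fgf15* (chr7:152082187-152082436, plus strand), *Fgf5* (chr5:98682953-98683202, plus strand) and *Fgfr3* (chr5:34064123-34064372, plus strand) lay inside a WT SUZ12 peak. *Fgf4* (chr7:152047041-152047290, plus strand) and *Fgf21* (chr7:52870861-52871110, minus strand) had no SUZ12 peak in any line. *Fgfr2* (chr7:137410323-137410572, minus strand) is shown because its SUZ12 peak lay at a start further downstream.
*Fgf15*: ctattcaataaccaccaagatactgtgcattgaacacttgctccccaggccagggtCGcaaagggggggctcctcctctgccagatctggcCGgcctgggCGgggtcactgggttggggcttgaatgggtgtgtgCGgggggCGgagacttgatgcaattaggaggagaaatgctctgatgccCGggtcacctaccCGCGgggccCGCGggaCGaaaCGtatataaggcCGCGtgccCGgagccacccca
*Fgf5*: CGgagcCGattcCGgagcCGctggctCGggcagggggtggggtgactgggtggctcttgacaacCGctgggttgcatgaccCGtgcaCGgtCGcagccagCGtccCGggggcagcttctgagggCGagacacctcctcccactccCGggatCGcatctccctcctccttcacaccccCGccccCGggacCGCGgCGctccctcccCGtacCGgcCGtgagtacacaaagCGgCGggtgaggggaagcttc
*Fgfr3*: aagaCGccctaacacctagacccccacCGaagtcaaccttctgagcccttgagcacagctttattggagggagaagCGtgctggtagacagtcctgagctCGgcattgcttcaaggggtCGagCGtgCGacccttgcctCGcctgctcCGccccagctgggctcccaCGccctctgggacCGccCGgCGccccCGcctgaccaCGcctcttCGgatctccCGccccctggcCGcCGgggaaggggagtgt
*Fgf4*: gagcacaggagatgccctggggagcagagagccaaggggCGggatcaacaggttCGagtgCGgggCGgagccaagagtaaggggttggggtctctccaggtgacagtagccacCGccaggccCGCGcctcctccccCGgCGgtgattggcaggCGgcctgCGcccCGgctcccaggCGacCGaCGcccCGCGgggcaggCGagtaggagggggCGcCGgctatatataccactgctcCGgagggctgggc
*Fgf21*: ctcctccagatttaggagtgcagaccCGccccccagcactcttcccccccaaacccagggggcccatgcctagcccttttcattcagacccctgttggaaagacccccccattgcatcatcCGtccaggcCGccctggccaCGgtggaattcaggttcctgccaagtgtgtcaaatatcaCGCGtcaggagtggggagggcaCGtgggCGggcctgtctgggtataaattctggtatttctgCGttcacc
*Fgfr2*: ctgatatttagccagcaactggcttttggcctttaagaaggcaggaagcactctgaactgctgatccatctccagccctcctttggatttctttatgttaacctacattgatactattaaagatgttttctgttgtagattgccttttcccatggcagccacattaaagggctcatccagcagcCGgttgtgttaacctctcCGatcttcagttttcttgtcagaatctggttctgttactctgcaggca
These windows held 15 (*Fgf15*), 24 (*Fgf5*), 19 (*Fgfr3*), 21 (*Fgf4*), 9 (*Fgf21*) and 2 (*Fgfr2*) CpGs. Over all members the median was 15 CpGs (range 1 to 42), with 16 for the 18 members that had a SUZ12 peak in WT and 10 for the 13 that had none. The medians over 17420 genes of the table were 15 with and 11 without such a peak. The ETS motif CCGGAAGT, searched on both strands, was in 1 member window (*Fgfrl1*, 3.23%) and in 4.22% of all windows. Its inner part CGGAAG, which every match of the longer motif also holds, was in 4 member windows (12.9%) and in 19.4% of all windows.

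SUZ12 peaks were frequent at these genes in WT and fewer in each mutant. A peak was counted within 5 kb of any annotated TSS, at a p of at most 1e-10, and with 1 library per line nothing was tested. In WT, 18 of the 31 members had a SUZ12 peak (58.1%), against 17.1% of all 17424 genes with a position. In *Ezh2* Y726D 11 members had one (all genes 12.1%), in *Ezh2* R685C 10 (9.78%), in the *Ezh2* KO 7 (4.86%) and in the *Ezh1/2* dKO 4 (1.17%). Every member with a peak in a mutant also had one in WT. The share of the WT set that was kept was 61.1% in *Ezh2* Y726D (60.4% over all genes), 55.6% in *Ezh2* R685C (55.3%), 38.9% in *Ezh2* KO (28.3%) and 22.2% in *Ezh1/2* dKO (6.80%). The lists differed in length, from 317 peaks in *Ezh1/2* dKO to 5404 in WT, and their depth is unknown. Longer lists were also cut to their 1578 strongest peaks, the length of the *Ezh2* KO list. SUZ12 was then at 10 members in WT, 9 in *Ezh2* Y726D, 8 in *Ezh2* R685C and 7 in the *Ezh2* KO. The *Ezh1/2* dKO list, with 317 peaks and 4 members, was shorter than this and could not be brought to equal length.

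*Fgf8* and *Fgf9*, ligands used in patterning of the embryo, and *Fgfr3* kept a SUZ12 peak in all 5 lines. With *Spry4*, they had the 4 highest best −log10 p of the members in WT. The best −log10 p of *Fgfr3* was 149 in WT, 120 in *Ezh2* R685C, 66.9 in *Ezh2* Y726D, 55.7 in the *Ezh2* KO line and 15.6 in the *Ezh1/2* dKO line. For *Fgf9* these values were 127, 107, 29.9, 61.2 and 12.6, and for *Fgf8* 104, 69.5, 30.7, 36.9 and 10.7. For all 3 the value was highest in WT, then in *Ezh2* R685C, and lowest in *Ezh1/2* dKO. A −log10 p depends on the depth of its library.

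The other members with SUZ12 in WT lost the peak in at least 1 mutant. *Fgf3*, *Fgf14* and *Fgf15* had a peak in WT and in both point mutants, and none in *Ezh2* KO or *Ezh1/2* dKO. *Fgf5*, a marker of the primed state, *Fgf12* and the receptor *Fgfr2* kept it in all lines but *Ezh1/2* dKO. *Fgf13* kept it in *Ezh2* KO alone, *Fgfr1* in *Ezh2* Y726D alone and *Dusp4* in *Ezh2* R685C alone, while *Fgfr4* had it in *Ezh2* Y726D and *Ezh1/2* dKO. *Spry4*, with a best −log10 p of 106 and 37.1% of its window covered in WT, had no SUZ12 peak in any mutant, and neither had *Dusp6*, *Fgf10*, *Fgf11* and *Fgf18*.

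**Figure D1:**
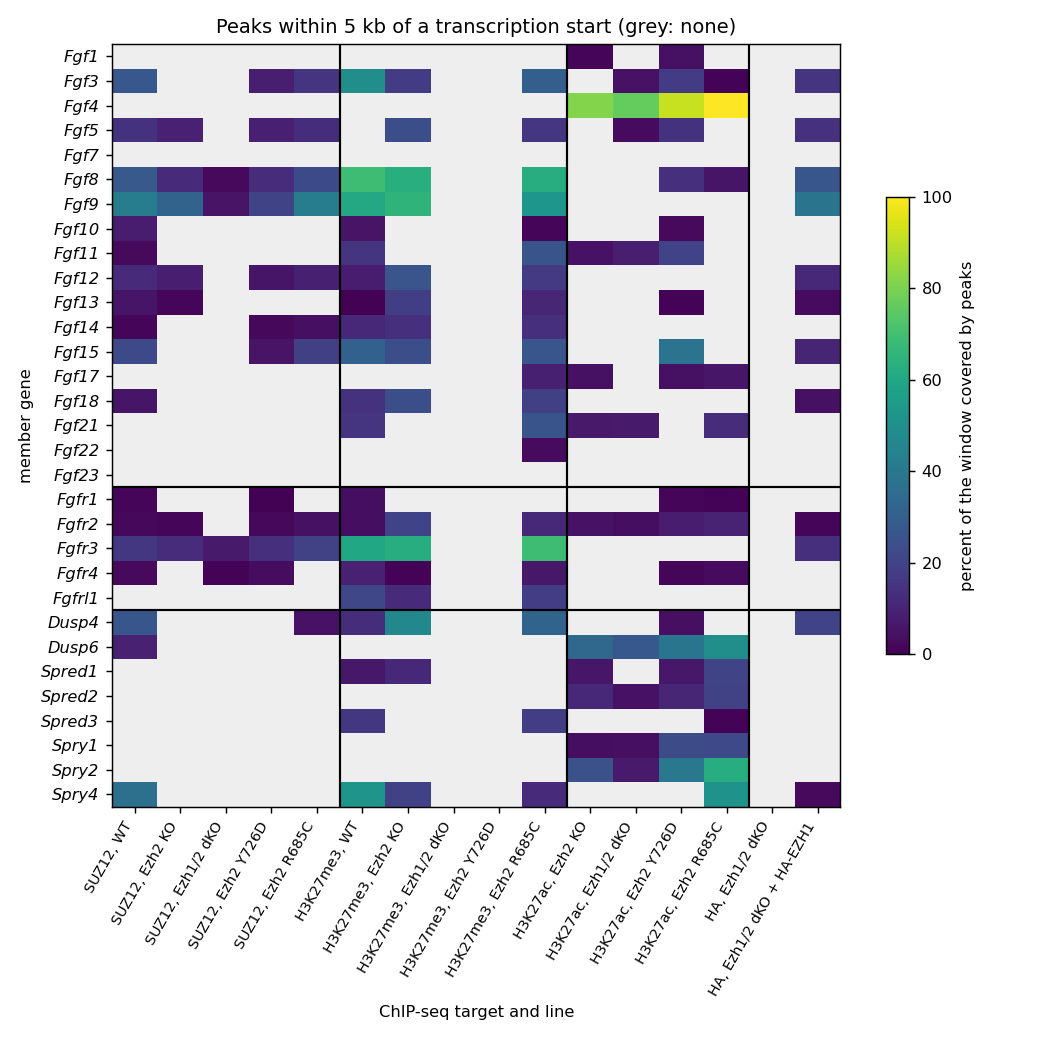
Percent of the window within 5 kb of the transcription starts that is covered by listed peaks, for the 31 members (rows; ligands, receptors and feedback inhibitors from top to bottom) and each ChIP-seq target and line (columns); grey marks no peak. The H3K27me3 columns of *Ezh1/2* dKO and *Ezh2* Y726D are empty, and *Fgf4* is the member most covered by H3K27ac.

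H3K27me3 marked 20 members in WT (22.0% of all genes), 16 in *Ezh2* KO (17.0%) and 21 in *Ezh2* R685C (28.0%). No member had an H3K27me3 peak in *Ezh1/2* dKO (0.115% of all genes) or in *Ezh2* Y726D (1.38%), whose lists held 53 and 3862 peaks. The 11 members with SUZ12 in *Ezh2* Y726D therefore had SUZ12 without listed H3K27me3. In WT, 16 of the 18 members with SUZ12 also had H3K27me3, the others being *Dusp6* and *Fgf5*. *Fgf21*, *Fgfrl1*, *Spred1* and *Spred3* had H3K27me3 in WT without a SUZ12 peak, and at *Fgf21* the nearest WT peak began 2631 bp upstream of the TSS. *Fgf17* and *Fgf22* had H3K27me3 in *Ezh2* R685C alone. Neither SUZ12 nor H3K27me3 was listed in any line at 7 members, *Fgf1*, *Fgf4*, *Fgf7*, *Fgf23*, *Spred2*, *Spry1* and *Spry2*.

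In *Ezh2* KO, where EZH1 alone remains, H3K27me3 was called more widely than SUZ12. All 7 members with SUZ12 carried it, and so did *Dusp4*, *Fgf14*, *Fgf15*, *Fgf18*, *Fgf3*, *Fgfr4*, *Fgfrl1*, *Spred1* and *Spry4*. Over all genes, 28.5% of those with H3K27me3 in *Ezh2* KO had SUZ12, against 43.8% of the members. *Fgf5* had a listed H3K27me3 peak in *Ezh2* KO (best −log10 p 161) and *Ezh2* R685C (117) and none in WT. Where WT and *Ezh2* KO both had a peak, the value was higher in *Ezh2* KO at every member but *Fgfr4*. At *Fgfr3* it was 428 in *Ezh2* KO and 36.6 in WT. A gain at *Fgf5* and a WT peak short of the threshold therefore cannot be told apart.

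H3K27me2 was described by the share of the promoter window covered by the deposited broad regions, which start at a −log10 p of about 1.00. The regions of *Ezh2* KO covered 70.4% (median) of the windows of members with SUZ12 in WT and 20.2% of the others. In WT the same medians were 10.2% and 22.6%, in *Ezh1/2* dKO 16.9% and 11.4%, and in *Ezh2* Y726D 19.3% and 24.1%. The regions of these 3 lines were weak. The best −log10 p at any member was 2.27 in WT, 2.63 in *Ezh1/2* dKO and 2.38 in *Ezh2* Y726D, against 10.51 in *Ezh2* KO. *Dusp4*, *Fgf5* and *Spry4* were covered over 100% of the window in *Ezh2* KO. Over all genes with SUZ12 in WT the median in *Ezh2* KO was 69.9%, against 0% over the genes without a peak. The lists covered 356 Mb in WT, 424 Mb in *Ezh2* KO, 639 Mb in *Ezh1/2* dKO and 628 Mb in *Ezh2* Y726D. The list was longest in *Ezh1/2* dKO, which lacks both methyltransferases, so coverage by listed regions does not by itself show the mark. The WT list has no region on chromosome 8, so *Dusp4* and *Fgfr1* are left out there.

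**Figure D2:**
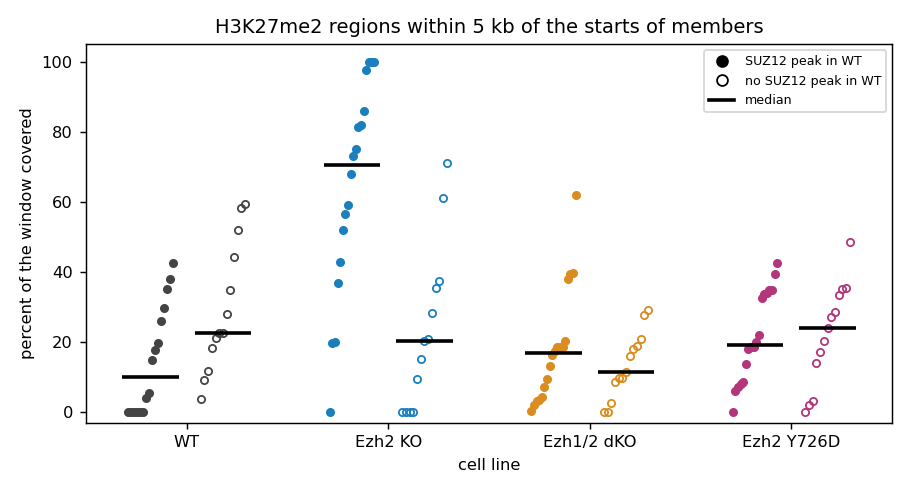
Percent of the promoter window covered by H3K27me2 regions (vertical axis) for each member in each line; filled points have a SUZ12 peak in WT, open points have none, and the bar is the median. The filled points of *Ezh2* KO, with a median of 70.4%, stand above those of the other lines, whose medians are 10.2% to 19.3%.

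HA-EZH1 was found at part of the same genes. In *Ezh1/2* dKO cells without the tagged protein no member had an HA peak (3.63% of all genes), and with HA-EZH1 12 had one (13.1%). All 12 were among the 18 members with SUZ12 in WT. Over all genes 77.5% of those with an HA peak had SUZ12 in WT. The 12 were *Dusp4*, *Fgf12*, *Fgf13*, *Fgf15*, *Fgf18*, *Fgf3*, *Fgf5*, *Fgf8*, *Fgf9*, *Fgfr2*, *Fgfr3* and *Spry4*, while *Dusp6*, *Fgf10*, *Fgf11*, *Fgf14*, *Fgfr1* and *Fgfr4* had none.

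H3K27ac, a mark of active promoters and enhancers, was listed in the 4 mutant lines. It was at 11 members in *Ezh2* KO (48.9% of all genes), 10 in *Ezh1/2* dKO (37.1%), 19 in *Ezh2* Y726D (60.4%) and 15 in *Ezh2* R685C (59.1%). The lists held 25483, 17618, 40829 and 41185 peaks in that order. *Dusp6*, *Fgf4*, *Spred2*, *Spry1* and *Spry2* had a peak in all 4, and 76.3% to 100% of the *Fgf4* window was covered. *Fgfr2* was counted in all 4 as well, but each of its peaks lay at 1 annotated start about 3 Mb from the others, and without that start the counts were 10, 9, 18 and 14.

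Of the 18 members with SUZ12 in WT, 12 had H3K27ac in *Ezh2* Y726D (66.7%, against 49.9% of all genes with SUZ12 in WT), and the corresponding shares were 16.7% (537 of 2987 genes) in the *Ezh2* KO line, 27.8% (21.5%) in the *Ezh1/2* dKO line and 38.9% (25.1%) in the R685C line. Without the remote *Fgfr2* start the members' shares were 61.1%, 11.1%, 22.2% and 33.3% in the same order. Of the 4 mutant lines, *Fgf15* had listed H3K27ac in *Ezh2* Y726D alone, in 7 peaks covering 38.0% of its window. All 7 lay close to the threshold, with a −log10 p of 10.22 to 14.51. The *Ezh2* Y726D list (40829 peaks) was longer than those of *Ezh2* KO (25483) and *Ezh1/2* dKO (17618), though not that of *Ezh2* R685C (41185). Acetylation of *Fgf15* in 1 line alone and peaks short of the threshold in other lines therefore cannot be told apart. *Fgf21* had H3K27ac in *Ezh2* KO, *Ezh1/2* dKO and *Ezh2* R685C and none in *Ezh2* Y726D.

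At the RNA level at most 2 of the tested members were called in any 1 comparison. A gene was called when limma gave a Benjamini-Hochberg adjusted p under 0.1 and a log2 fold change of at least 1 in size. Of the 31 members, 22 reached a mean of 5 normalized counts and were tested, among 13872 genes. A member that passed this filter only through 1 line could not have passed without differing there. The counts also say nothing of the members that were left out. None was called in *Ezh2* KO against WT (0.404% of all genes were). In *Ezh1/2* dKO against WT 1 was called (4.02% of all genes), in *Ezh2* Y726D against WT 2 (2.72%), in *Ezh1/2* dKO against *Ezh2* KO 2 (3.58%) and in *Ezh2* Y726D against *Ezh1/2* dKO 2 (1.68%). For *Ezh2* KO against WT, limma gave 2 of the 22 tested members an unadjusted p under 0.05, beside 1225 of the 13872 genes. The count of members was 3 with edgeR and 2 with DESeq2, with none called by either. The median log2 change of the tested members was −0.43, 0.11, 0.10, 0.19 and 0.08 in these 5 comparisons, and that of all genes lay between −0.02 and 0.01. The comparisons share libraries, so their results are not independent. In bulk RNA, fewer expressing cells and less RNA per cell cannot be told apart.

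*Fgf15*, the mouse counterpart of the intestinal hormone FGF19, was the member with the clearest rise. It stood at 16.0 and 7.70 normalized counts in WT, 24.1 and 25.2 in *Ezh2* KO, 33.8 and 35.5 in *Ezh1/2* dKO, and 111 and 115 in *Ezh2* Y726D. No line overlapped another. Against WT it rose in *Ezh2* Y726D by 3.23 on the log2 scale (SE 0.41, limma adjusted p = 0.0113) and in *Ezh1/2* dKO by 1.55 (SE 0.41, limma adjusted p = 0.0884). The rise in *Ezh2* Y726D was called under every alternative run, with adjusted p up to 0.0866. The call in *Ezh1/2* dKO was lost under 10 of 19 alternatives, among them DESeq2 (adjusted p = 0.102), leaving out WT replicate 2 (log2 change 1.07, limma adjusted p = 0.162), and leaving out any 1 of the *Ezh2* KO or *Ezh1/2* dKO libraries (limma adjusted p = 0.127 to 0.439). *Ezh2* Y726D against *Ezh1/2* dKO was not called (log2 difference 1.68, limma adjusted p = 0.109), though it was with edgeR (adjusted p = 0.0681) and DESeq2 (adjusted p = 0.0304). *Fgf15* lies at chr7:152082437-152086858 (mm9), within 100 kb of *Fgf4* and *Fgf3*, and its exons overlap those of *Gm17685* on the opposite strand, whose reads cannot be told apart from its own because counting ignored strand.

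The WT SUZ12 peak of *Fgf15* covered its TSS, at chr7:152081546-152083752 with a −log10 p of 45.3. The peak in *Ezh2* Y726D was narrower, at chr7:152082800-152083344, with a −log10 p of 12.4. In *Ezh1/2* dKO neither SUZ12, H3K27me3 nor H3K27ac was listed there. The neighbour *Fgf4* was not called in any comparison.

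*Fgf21*, a hormone that acts through FGF receptors and the co-receptor β-Klotho, had no read in either *Ezh2* Y726D library. It was at 12.01 and 2.89 normalized counts in WT, 15.7 and 16.5 in *Ezh2* KO, and 15.7 and 27.5 in *Ezh1/2* dKO. All 6 libraries of the other lines stood above the *Ezh2* Y726D libraries. *Ezh2* Y726D was also put at a floor of 3 reads over both libraries. Its pooled level was then 14.4-fold lower than that of *Ezh1/2* dKO and 4.51-fold lower than that of WT. The reads of the other line, 9 and 3 in WT, were taken as exact, so these folds are not strict bounds. The fitted log2 differences, which depend on the pseudocount, were −4.45 (SE 0.70, limma adjusted p = 0.022) and −2.83 (SE 0.70, limma adjusted p = 0.0886). The call against WT rested on 12 reads in WT and was lost under 14 of 18 alternatives, with limma adjusted p = 0.249 without WT replicate 1 and 0.126 to 0.202 without any 1 library of the other lines. The call against *Ezh1/2* dKO was lost without either *Ezh1/2* dKO library (limma adjusted p = 0.161 and 0.367). *Klb*, which encodes β-Klotho, was also without a read in *Ezh2* Y726D, against 14.7 and 5.78 in WT, 3.14 and 6.77 in *Ezh2* KO and 4.95 and 6.22 in *Ezh1/2* dKO.

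*Fgf1*, a ligand that binds every FGF receptor, was highest in *Ezh1/2* dKO. It was at 51.9 and 53.3 normalized counts there, 18.7 and 13.5 in WT, 6.27 and 6.77 in *Ezh2* KO, and 13.4 and 4.48 in *Ezh2* Y726D. It was higher in *Ezh1/2* dKO than in *Ezh2* KO by 2.83 on the log2 scale (SE 0.55, limma adjusted p = 0.0336) and lower in *Ezh2* Y726D than in *Ezh1/2* dKO by a log2 difference of −2.60 (SE 0.55, limma adjusted p = 0.076). Both calls were lost without either *Ezh1/2* dKO library (limma adjusted p = 0.280 to 0.549) and without either *Ezh2* KO library (0.126 to 0.187), and the second without *Ezh2* Y726D replicate 2 (0.264). Over all alternatives the first was lost in 5 of 19 and the second in 9 of 19, among them no filter on low values (0.117), only the 4 libraries compared (0.152) and WT replicate 1 and *Ezh2* Y726D replicate 2 both left out (0.104).

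*Fgfr2*, the receptor expressed in the trophoblast and primitive endoderm of the embryo, was lowest in *Ezh2* KO. It was at 1.05 and 3.87 normalized counts there, from 1 and 4 reads, against 24.0 and 12.5 in WT, 32.2 and 27.5 in *Ezh1/2* dKO, and 9.81 and 13.4 in *Ezh2* Y726D. It was higher in *Ezh1/2* dKO than in *Ezh2* KO by 3.28 on the log2 scale (SE 0.60, limma adjusted p = 0.028), and *Ezh2* KO against WT was not called. Without *Ezh2* KO replicate 1 or either *Ezh1/2* dKO library the call was lost (limma adjusted p = 0.160 to 0.246). Its SUZ12 peak lay over 1 TSS in WT (chr7:137408307-137409697) and was still listed in *Ezh2* KO (chr7:137408411-137409738) but not in *Ezh1/2* dKO, and H3K27me3 in *Ezh2* KO formed a block of 10677 bp at chr7:137401770-137412446 with a −log10 p of 340. Some *Fgfr2* exons in the annotation overlap those of *Ctbp2*.

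**Figure D3:**
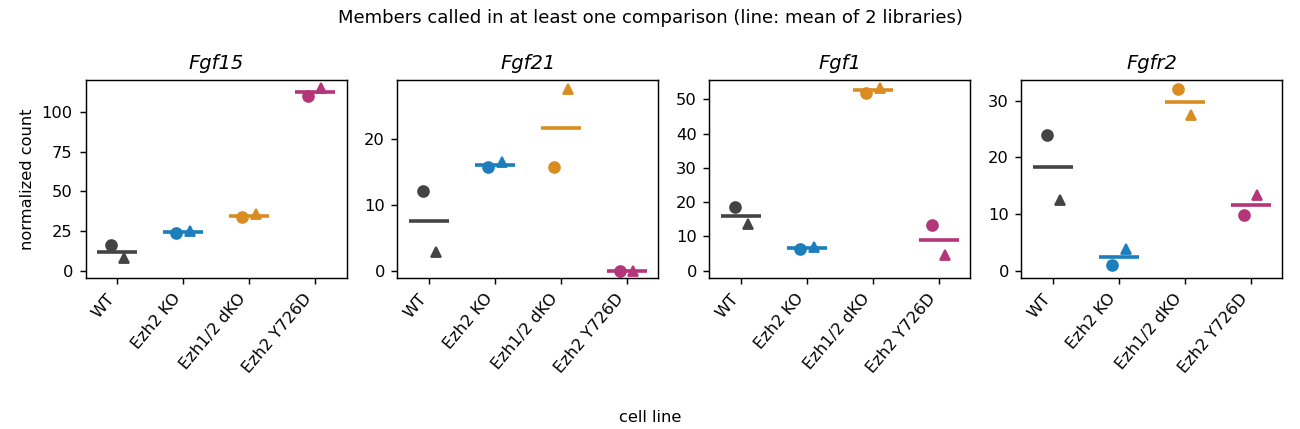
Normalized counts (vertical axes, linear) of the 4 members called in at least 1 comparison, for the 4 lines; circles are replicate 1, triangles replicate 2 and bars the mean of both. *Fgf15* is highest in *Ezh2* Y726D (111 and 115), *Fgf21* is at 0 there, *Fgf1* is highest in *Ezh1/2* dKO (51.9 and 53.3) and *Fgfr2* lowest in *Ezh2* KO (1.05 and 3.87).

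Among the other ligands *Fgf4*, the main FGF of ESCs, was the most abundant per kb of exon. *Fgf4* was at 319 and 314 normalized counts in WT, 330 and 321 in *Ezh2* KO, 441 and 349 in *Ezh1/2* dKO, and 413 and 277 in *Ezh2* Y726D. Its mean over the lines was 114 normalized counts per kb of exon, after *Spry2* (205) and *Dusp6* (124) among the members. WT, *Ezh2* KO and *Ezh1/2* dKO stood one above the other without overlap, and *Ezh2* Y726D overlapped all of them. *Fgf17*, related to *Fgf8*, was at 177 and 39.5 in WT, 41.8 and 16.5 in *Ezh2* KO, 34.6 and 16.9 in *Ezh1/2* dKO, and 37.5 and 78.3 in *Ezh2* Y726D, so that 1 WT library set its WT mean. *Fgf3* was at 61.4 and 18.3, 28.2 and 32.9, 41.2 and 70.2, and 43.7 and 81.7 in the same order of lines. WT overlapped every mutant, and *Ezh2* KO lay below the other mutants.

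*Fgf5* and *Fgf10* differed widely between libraries of 1 line. *Fgf5* was at 2.67 and 17.3 in WT, 3.14 and 2.90 in *Ezh2* KO, 16.5 and 7.10 in *Ezh1/2* dKO, and 56.2 and 8.95 in *Ezh2* Y726D. *Fgf10*, a ligand of branching organs, was at 37.4 and 7.70, 28.2 and 54.2, 24.7 and 61.3, and 11.6 and 105.2 in the same order. *Fgf13*, an intracellular homologous factor, was at 6.67 and 2.89, 4.18 and 0.968, 11.5 and 20.4, and 16.1 and 7.83. In *Ezh1/2* dKO and in *Ezh2* Y726D it lay above both WT and *Ezh2* KO without being called. The 9 members under the filter were *Fgf7*, *Fgf8*, *Fgf9*, *Fgf11*, *Fgf12*, *Fgf14*, *Fgf18*, *Fgf22* and *Fgf23*, with means of 0.605 to 3.68 normalized counts. *Fgf8* and *Fgf9*, with SUZ12 in all lines, had 9 and 7 reads in the 8 libraries together. *Fgf8* had no read in WT or *Ezh2* KO, 2 and 1 in *Ezh1/2* dKO, and 6 and 0 in *Ezh2* Y726D.

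Apart from *Fgfr2*, no receptor was called. *Fgfr1*, the main receptor of ESCs, was at 264 and 202 normalized counts in WT, 202 and 228 in *Ezh2* KO, 232 and 234 in *Ezh1/2* dKO, and 189 and 273 in *Ezh2* Y726D. *Fgfr3*, with the strongest SUZ12 peak of the members in WT, was at 40.0 and 56.8, 55.4 and 51.3, 47.8 and 56.8, and 62.4 and 42.5. All lines overlapped for *Fgfr3*, and for *Fgfr1* all but *Ezh1/2* dKO, which lay above *Ezh2* KO. *Fgfr4* was at 2.67 and 26.96, 6.27 and 13.6, 6.59 and 6.22, and 15.2 and 15.7, and *Fgfrl1*, a receptor without a kinase domain, at 29.4 and 12.5, 23.0 and 8.71, 18.1 and 24.0, and 6.24 and 15.7.

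**Figure D4:**
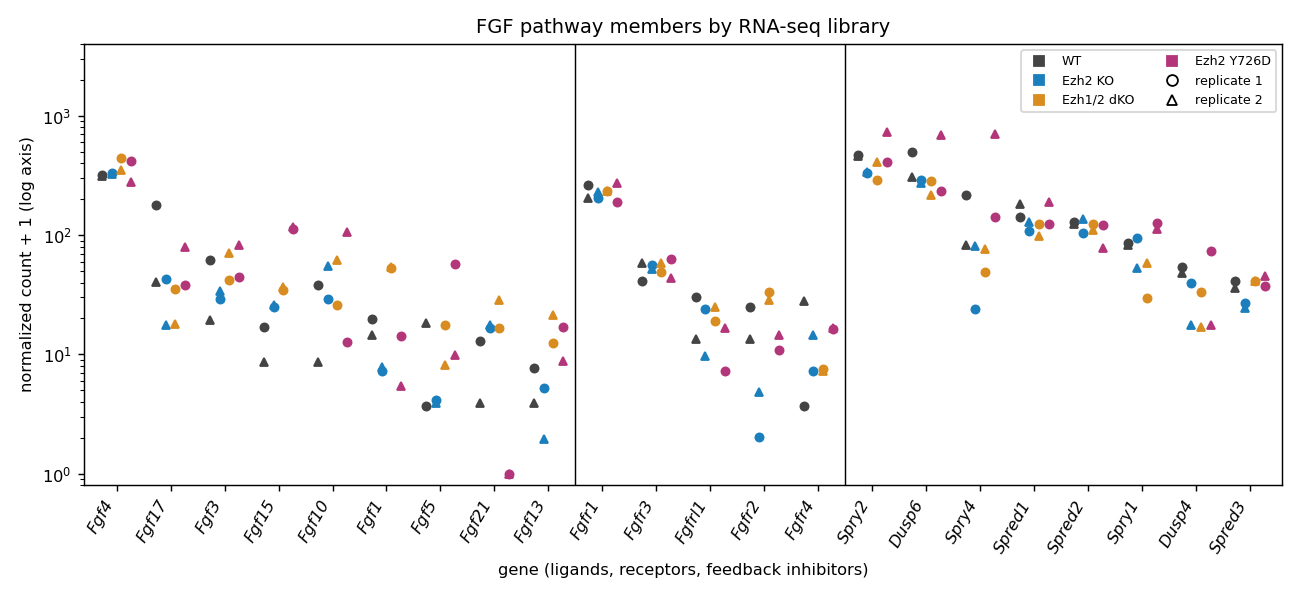
Normalized count plus 1 (vertical axis, log scale) of the 22 tested members in the 8 RNA-seq libraries; colours are lines and symbols replicates, and vertical rules separate ligands, receptors and feedback inhibitors. *Fgf4*, *Fgfr1* and *Spred2* vary little, while *Fgf5*, *Fgf10* and *Spry4* vary widely within lines.

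The feedback inhibitors were not called in any comparison, and several differed most between the 2 libraries of 1 line. *Spry4* was at 217 and 80.9 normalized counts in WT, 23.0 and 80.3 in *Ezh2* KO, 47.8 and 75.5 in *Ezh1/2* dKO, and 142 and 701 in *Ezh2* Y726D. *Dusp6*, the cytoplasmic ERK phosphatase, was at 492 and 303, 288 and 270.0, 283 and 216, and 235 and 695. *Spry2* was at 470 and 460, 329 and 340, 287 and 405, and 408 and 724. In all 3 the *Ezh2* Y726D replicate 2 library was the highest of the 8.

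*Dusp4*, the nuclear ERK phosphatase, went the other way in that line, at 73.1 and 16.8, with 53.4 and 47.2 in WT, 38.7 and 16.5 in *Ezh2* KO, and 32.2 and 16.0 in *Ezh1/2* dKO. *Spry1* was at 85.4 and 80.9 in WT, 93.1 and 52.3 in *Ezh2* KO, 28.9 and 57.7 in *Ezh1/2* dKO, and 126 and 111 in *Ezh2* Y726D. Both *Ezh2* Y726D libraries stood above all others for *Spry1*, with a limma adjusted p of 0.131 against *Ezh1/2* dKO, and DESeq2 called that difference (adjusted p = 0.0507). No Spred gene was called. *Spred1* was at 140 and 182, 107 and 127, 124 and 97.7, and 124 and 187, *Spred2* at 128 and 122, 103 and 135, 122 and 108, and 121 and 77.2, and *Spred3* at 40.0 and 34.7, 26.1 and 23.2, 40.4 and 40.0, and 36.6 and 44.8.

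The spread within lines was larger for these genes than for most. The median SD between libraries of a line was 0.594 on the log2 scale for the 22 members and 0.268 for all genes tested. This SD depends on the level of a gene, and the genes compared were not matched by level. *Fgf4* (0.235), *Fgfr1* (0.239) and *Spred3* lay below the median of all genes. It was largest for *Fgf10* (1.44), *Fgf5* (1.27) and *Spry4* (1.16) and smallest for *Spred3* (0.136). Without *Ezh2* Y726D replicate 1, *Dusp6*, *Spry2* and *Spry4* were called higher in *Ezh2* Y726D than in *Ezh1/2* dKO, and without replicate 2 they were not, so 1 library decides these calls. Leaving out both WT replicate 1 and *Ezh2* Y726D replicate 2 was a choice made after the data were seen, and it left 1 WT library. More members were then called in *Ezh1/2* dKO against WT, and the calls over all genes rose as well. The log2 changes of these members were 1.89 (*Fgf1*), 1.51 (*Fgf3*), 2.20 (*Fgf10*), 2.03 (*Fgf15*), 2.49 (*Fgf21*) and −1.92 (*Fgfr4*).

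**Figure D5:**
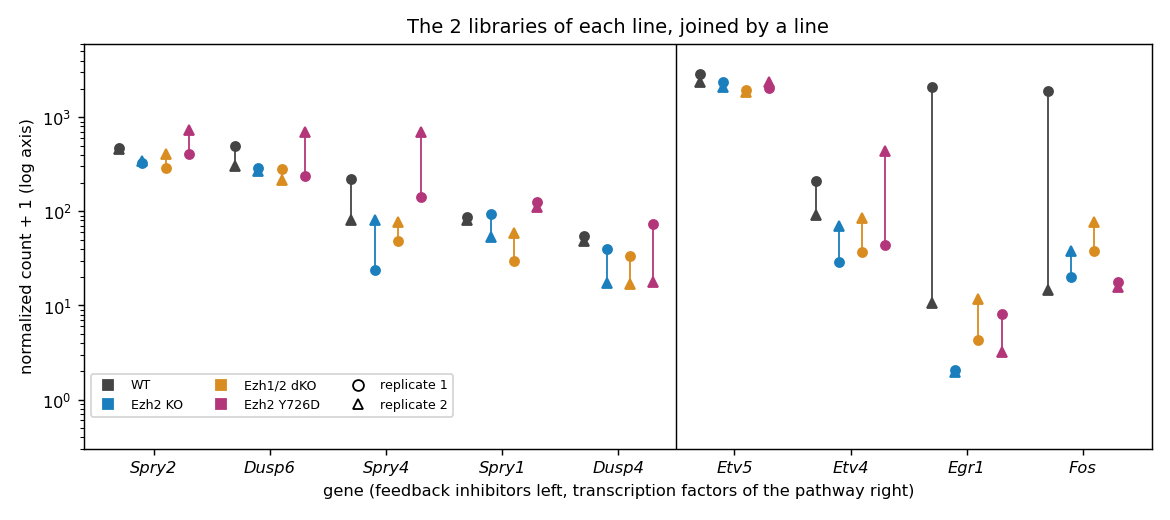
Normalized count plus 1 (vertical axis, log scale) of 5 feedback inhibitors and 4 transcription factors of the pathway; circles are replicate 1 and triangles replicate 2 of the same line, joined by a line. *Egr1* and *Fos* are at 2118 and 1876 in WT replicate 1 alone, and *Spry4* and *Etv4* are highest in *Ezh2* Y726D replicate 2, at 701 and 436.

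Of 35 further genes of the cascade, 32 were tested and 3 were called in at least 1 comparison. *Dusp9*, an ERK phosphatase active in ESCs, was at 592 and 339 normalized counts in WT, 353 and 489 in *Ezh2* KO, 956 and 943 in *Ezh1/2* dKO, and 825 and 1007 in *Ezh2* Y726D, and was called higher in *Ezh1/2* dKO (log2 change 1.08, limma adjusted p = 0.0642) and *Ezh2* Y726D (1.02, 0.0936) against WT and in *Ezh1/2* dKO against *Ezh2* KO (1.19, 0.0498). *Etv1*, an ETS factor, was lower in *Ezh2* Y726D than in WT, at 74.0 and 115 against 224 and 299 (log2 change −1.48, limma adjusted p = 0.0442), as was *Klb* (limma adjusted p = 0.0537). No other listed gene was called. The adaptor *Gab1* had a limma adjusted p of 0.0371 in *Ezh1/2* dKO against WT and 0.0663 in *Ezh2* Y726D against *Ezh1/2* dKO, with log2 differences of −0.72 and 0.69, short of the fold threshold. The median log2 change over the list was −0.24, −0.28, −0.06, 0.09 and 0.09 in the 5 comparisons.

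Some marker lists of other cell types differed between lines, and others differed widely between the libraries of 1 line. The summed level of 7 primitive endoderm genes was 10.5 to 36.6 normalized counts in WT and *Ezh2* KO, 146 to 171 in *Ezh1/2* dKO and 55.9 to 63.3 in *Ezh2* Y726D, with *Gata4* and *Dab2* called higher in *Ezh1/2* dKO than in WT and *Foxa2* and *Sox17* at most at 0.963 and 2.89 in any library. The sum of 5 trophoblast genes was 32.7 to 128 in WT, 93.9 to 126 in *Ezh2* KO, 237 to 239 in *Ezh1/2* dKO and 177 to 565 in *Ezh2* Y726D, with *Gata3* called higher in *Ezh1/2* dKO and *Ezh2* Y726D than in WT. Of 6 fibroblast genes 4 were in the table, with a sum of 4.81 to 16.7 in WT and *Ezh2* KO and 86.1 to 116 in the other lines, mostly *Thy1*, which was called higher in both against WT. The sum of 6 primed-state genes was 483 to 1865 and that of 4 mesoderm genes 46.0 to 184, highest in *Ezh2* Y726D replicate 2 for both, and *Pou3f1* of the former was called higher in *Ezh1/2* dKO than in *Ezh2* KO. Their part in the changes of *Fgf1*, *Fgf15*, *Fgf21* and *Fgfr2* was not tested.

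The tested members were also split by SUZ12 in WT. The 12 with a peak had a median log2 change of 0.33 in *Ezh1/2* dKO against WT and of 0.75 in *Ezh2* Y726D, where all 1941 tested genes with a peak had medians of 0.74 and 0.44. The 10 without a peak had medians of −0.01 and −0.22, beside −0.04 and −0.04 over 11644 genes. Of the 4 called members, *Fgf15* and *Fgfr2* had a SUZ12 peak in WT and *Fgf1* and *Fgf21* had none.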

How the data were processed

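RNA-seq measured polyadenylated RNA by SMART-seq2 in 4 lines with 2 libraries each. For it the authors used TopHat (mm9), removed duplicates and counted per RefSeq gene with HTSeq-count, ignoring strand. The signal they deposited is a DESeq2-normalized count. After dividing each library by the value of 1 read, 100% of these values were whole within 0.001 of a read. For the chromatin libraries they used Bowtie (mm9) and MACS2. A −log10 p stands beside each deposited peak or broad region, while HA peaks come as positions alone. The files of the authors' DESeq2 comparisons hold their fold changes and p-values and were not used, nor was H3K27me1. WT H3K27ac was not analysed here. No list is scaled by the spiked-in fly chromatin.

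limma 3.58.1 (R 4.3.3) was fitted with a trend to log2(normalized count + 1) over all 8 libraries, for genes with a mean of at least 5, with Benjamini-Hochberg adjustment over 13872 genes. edgeR 4.0.16 and DESeq2 1.42.0 on the recovered reads, other pseudocounts, filters, scalings, thresholds, windows and left-out libraries were the alternatives. The p-values measure only the spread between these samples, which may be technical. In simulated libraries for *Ezh1/2* dKO against WT, a 4-fold change given to 200 genes was called in 185 (92.5%). A further 16 of the 13872 genes were called falsely, and 0 when no gene was changed. The share called was not obtained for the members themselves. Their median SD between libraries of a line was 0.594 on the log2 scale, against 0.268 for all genes tested. The 92.5% therefore does not say how many 4-fold changes among the members would be called.

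Peaks within 5 kb of any TSS of the GENCODE mm9 annotation were counted with Python 3.11.15, numpy 2.4.6 and pandas 2.3.3 (overlap of at least 1 bp). Of the 18055 genes, 16570 were matched by symbol, 854 by synonym and 631 not. Promoter sequences were read from the mm9 genome; for CpG counts the most 5′ TSS was used, leaving out starts over 1 Mb from the others. Figures were drawn with matplotlib 3.10.9.

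Every member is named, with log2 changes for called members and, beyond them, for *Fgf15* and *Spry1* in *Ezh2* Y726D against *Ezh1/2* dKO, where tools differed, and *Gab1*, choices made after their values were seen; cascade and marker genes are named if called or if a result turns on them. Members and lists were chosen with earlier results of these data known. Some labels give Y726D with no mention of *Ezh1*, and those samples were treated as the 1 *Ezh2* Y726D line the study describes. A gene of the cascade list is not reported here.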

Additional observations from a re-analysis of the deposited data

How the results depend on the processing

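*Fgf15* in *Ezh2* Y726D against WT was called under 19 of 19 alternatives (log2 change 2.74 to 3.71), and no called member changed direction. The number of members called in *Ezh2* KO against WT was 0 under every alternative. In *Ezh1/2* dKO against WT (1) it was 2 with a pseudocount of 5, 0 without a filter on low values, with quantile normalization and at an adjusted p under 0.05, 0 to 2 when 1 library was left out, and 6 without both WT replicate 1 and *Ezh2* Y726D replicate 2; DESeq2 called *Fgf17* lower in place of *Fgf15*. In *Ezh2* Y726D against WT (2) it was 1 with a pseudocount of 5, no filter, a mean of at least 20, edgeR, quantile normalization, only the 4 libraries compared, an adjusted p under 0.05 and both doubted libraries left out, and 1 to 2 when 1 library was left out. In *Ezh1/2* dKO against *Ezh2* KO (2) it was 1 with a mean of at least 20, 0 with quantile normalization and 0 to 2 when 1 library was left out. In *Ezh2* Y726D against *Ezh1/2* dKO (2) it was 1 with no filter, a mean of at least 20 or an adjusted p under 0.05, 4 with DESeq2 or quantile normalization, and 0 to 5 when 1 library was left out. With the replicate number as a block, the counts were 0 in *Ezh1/2* dKO against WT, 1 in *Ezh2* Y726D against WT and 1 in *Ezh2* Y726D against *Ezh1/2* dKO, and the calls of *Fgf15*, *Fgf21* and *Fgf1* in these comparisons were lost. To compare same-numbered libraries, the deviation of each replicate 1 from the mean of its line was taken for every gene on the log2 scale. These deviations, not the levels, correlated at 0.22 to 0.29 among the 3 mutant lines but at −0.41 to −0.07 between WT and each mutant. No source says that a number marks a shared culture, so the block was kept as an alternative. The cause of these changes was not tested.

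Over all genes, the calls in *Ezh2* KO against WT were 56, 30 with edgeR, 149 with DESeq2, 28 with only the 4 libraries compared, 35 without a filter, 34 with quantile normalization or the block and 31 at an adjusted p under 0.05. At that threshold the calls in *Ezh1/2* dKO and *Ezh2* Y726D against WT fell from 557 to 285 and from 377 to 200, and the latter to 32 with only the 4 libraries. The 496 calls in *Ezh1/2* dKO against *Ezh2* KO became 258 with a mean of at least 20, 176 with quantile normalization, 1181 with only the 4 libraries and 299 at an adjusted p under 0.05, and the 233 in *Ezh2* Y726D against *Ezh1/2* dKO became 150 and 103 under the last pair. Without both doubted libraries, a choice made after the data were seen, the 5 comparisons had 148, 1252, 464, 1150 and 395 calls. When 1 library was left out, the counts ran from 6 (without *Ezh2* KO replicate 2) to 135 (without WT replicate 2), 3 to 733, 156 to 546, 53 to 665 and 14 to 514 in the 5 comparisons, and the lowest of the last 4 were without an *Ezh1/2* dKO library.

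With peaks at a p of at most 1e-20, SUZ12 was at 11 members in WT, 4 in the *Ezh2* KO line, 0 in the *Ezh1/2* dKO line and 4 in *Ezh2* Y726D, H3K27me3 at 8 in WT, and H3K27ac at 6 in the *Ezh2* KO line, 3 in the *Ezh1/2* dKO line and 9 in each point mutant. With lists cut to equal length, SUZ12 was at 10 members in WT against 9 in *Ezh2* Y726D, 8 in *Ezh2* R685C and 7 in the *Ezh2* KO line, so that its lead narrowed, and H3K27me3 was at 11 in WT, 15 in the *Ezh2* KO line and 12 in *Ezh2* R685C. A window of 1 kb, a cover of at least 200 bp or the most 5′ TSS alone kept each count within 1.5 times. Peak lists carry no depth, and 1 library per line gives no error.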

Other observations

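ATAC-seq, which maps open chromatin, was described by the share of the members' promoter windows that its regions covered. The median share within 5 kb of the transcription starts was 43.2% in WT, 37.8% in the *Ezh2* KO line, 43.6% in the *Ezh1/2* dKO line and 43.8% in *Ezh2* Y726D, beside 39.3%, 35.5%, 40.1% and 39.2% over all genes. At *Fgf15* the values were 52.7%, 28.0%, 45.3% and 29.6%, and at *Fgf21* 68.2%, 46.5%, 35.1% and 35.5%. *Spry4* was covered over 49.7%, 44.9%, 47.8% and 64.1% of its window. Each value comes from 1 library and from regions listed down to a −log10 p of 1.00, and no difference was tested.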
